A study of Mus musculus with 4 samples.

Results

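The respiratory chain subunits examined here are the nuclear genes that encode the 5 protein complexes of the inner mitochondrial membrane and the electron carrier cytochrome c. Members were the protein-coding genes of the GENCODE M21 annotation (mm10) whose symbols begin with Nduf followed by a, b, c, s or v and a digit, with Uqcr, with Cox4 to Cox8, or with Atp5 and a letter from a to o, together with Sdha to Sdhd, Cyc1 and Cycs. This gave 86 genes of the 55573 in the count table, under 85 symbols since Atp5o stands for 2 gene identifiers. There were 37 genes of complex I, 4 of complex II, 9 of complex III, Cycs, 18 of complex IV and 17 of complex V. The symbol pattern leaves out Ndufab1, Usmg5, Atpif1 and Atp5s.

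The study recovered RNA with an antibody against Runx1, a transcription factor needed for blood cells to form from embryonic endothelium, and with a non-specific IgG antibody as background (RNA immunoprecipitation and sequencing, RIP-seq). Both groups held 2 libraries, Runx1 replicates 1 and 2 and IgG replicates 1 and 2. All 4 came from Cd31+ cells (Cd31 is a surface protein of endothelium and some blood cells), sorted by FACS from the caudal portion of E10.0 embryos of WT C57BL/6 mice. The comparison asks which RNAs were recovered above the IgG background. Gene counts came to 1675488 and 1887301 in the Runx1 libraries, against 3843318 and 2482045 in the IgG libraries. In CPM, counts scaled to a library of 1000000, 3 counts are 1.79 and 1.59 in the Runx1 libraries and 0.781 and 1.21 in the IgG libraries. Such limits, and the intervals given below, cover counting error only. The labels do not say that the replicates came from separate sorts, so the spread that p-values rest on may be technical. Endothelial markers summed to 1691 and 1376 CPM in the Runx1 libraries and 1697 and 1695 CPM in the IgG libraries, and all 9 had counts. A pull-down mixes the cells' RNA content with what the antibody retained, and fewer cells of a type cannot be told apart from less RNA per cell.

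Complex I takes electrons from NADH and complex II from succinate, complex III passes them through cytochrome c to complex IV, which reduces oxygen, and complex V is the ATP synthase driven by the proton gradient that complexes I, III and IV build. Most subunits are nuclear-encoded and made in the cytosol, and a few of the most hydrophobic ones are encoded by mitochondrial DNA, except that complex II has none of these. In many cell types the promoters of the nuclear genes carry sites for NRF1 and for ETS-family factors such as GABP.

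The RefSeq promoter table (GRCm38.p6) held 67 of the 85 symbols. In the 250 bases before the start, an NRF1 motif (GCGCA, any base and GCGC, either strand) stood in 13 of these 67 genes (19.4%), against 4.23% of all 27025 genes in the table. An ETS motif (CCGGAAG, either strand) stood in 12 (17.9%, against 7.83% of all genes), and a RUNX motif (TGTGGT, either strand) in 7 (10.4%, against 15.9%). No printed motif overlaps another. All genes of the table were taken whether or not they had counts here, so the shares are not set against expressed genes alone. A match is a description and not a site of binding. The part of the window outside annotated exons is given for Uqcr11 and Uqcrh, which had the highest and the lowest fold change among the genes of complex III that passed the low-count filter, and for Atp5h, the lowest among those of complex V. Atp5b is shown as an abundant member with none of the motifs. Capitals mark a motif.
Uqcr11 (chr10:80406831-80407071, minus strand): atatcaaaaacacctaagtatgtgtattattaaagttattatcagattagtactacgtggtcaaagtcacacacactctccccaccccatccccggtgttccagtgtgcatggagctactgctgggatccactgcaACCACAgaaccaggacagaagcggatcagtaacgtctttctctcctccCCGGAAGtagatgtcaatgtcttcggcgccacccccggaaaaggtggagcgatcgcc
Uqcrh (chr4:116075072-116075268, minus strand): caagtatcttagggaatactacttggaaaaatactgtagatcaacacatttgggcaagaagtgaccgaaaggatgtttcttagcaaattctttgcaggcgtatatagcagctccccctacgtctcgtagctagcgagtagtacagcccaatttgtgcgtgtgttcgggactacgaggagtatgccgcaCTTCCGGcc
Atp5b (chr10:128083057-128083272, plus strand): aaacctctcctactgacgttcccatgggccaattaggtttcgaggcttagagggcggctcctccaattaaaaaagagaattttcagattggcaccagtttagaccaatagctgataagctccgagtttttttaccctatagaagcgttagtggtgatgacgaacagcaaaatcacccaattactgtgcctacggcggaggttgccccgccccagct
Atp5h (chr11:115419963-115420127, minus strand): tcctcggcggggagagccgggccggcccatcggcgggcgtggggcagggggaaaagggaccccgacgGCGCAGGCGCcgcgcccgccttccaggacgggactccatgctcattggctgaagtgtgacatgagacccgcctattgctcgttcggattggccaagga
In Uqcr11 the first capitals are the RUNX motif on the opposite strand and the second the ETS motif. In Uqcrh the capitals are the ETS motif on the opposite strand, and in Atp5h the NRF1 motif. Atp5h also counts among the genes with an ETS motif, which lies in the part of its window that is not printed.

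The nuclear respiratory chain mRNAs took a larger share of the libraries made with the Runx1 antibody, while no member passed the gene test. Together they made up 0.432% of gene counts in both Runx1 libraries, against 0.295% and 0.303% in the IgG libraries. Their summed level was 4321 and 4324 CPM in the Runx1 libraries and 2947 and 3031 CPM in the IgG libraries, a ratio of means of 1.45. Such a share is relative to the other RNAs of a library. Scaled to the ERCC spike-in RNAs instead, which made up 0.0356% and 0.0378% of counts in the Runx1 libraries and 0.0129% and 0.0175% in the IgG libraries, every complex was lower with the Runx1 antibody, as was the typical gene (median log2 fold change -1.26). All directions given here are therefore relative to the other genes, and they turn round under the spike-in scaling for the sums and for the complex medians.

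Of the 86 members, 64 passed the low-count filter, 17 had counts but did not pass, and 5 had no count in any library (Cox6a2, Cox7b2, Cox8b, Cox8c and the second Atp5o identifier). In edgeR at a false discovery rate of 0.05, 0 of the 64 were higher and 0 lower, against 0.306% and 0.339% of the 12401 genes tested. At an unadjusted edgeR p under 0.05, 10 members were higher and 0 lower, against 6.88% and 7.36% of all genes tested. DESeq2 called 3 of the 22 members to which it gave an adjusted p (Cyc1, Atp5b and Atp5c1, higher), against 3.91% of genes higher and 6.10% lower. With limma-voom 1 of 64 was called higher (Atp5b), against 0.823% of genes higher and 0.968% lower. Of the 81 members with any count, 43 had both Runx1 libraries above both IgG libraries and 3 had both below (Ndufa3, Ndufs4 and Uqcrb), against 18.1% and 16.7% of all genes with a count. Among the genes that passed the filter, where the complexes are counted below, these shares were 24.1% and 21.3%. Ndufs5, Ndufv3, Uqcr11, Cox6b1 and Atp5o passed the filter through their Runx1 libraries alone. The median log2 fold change was 0.77 over the 64 members and 0.03 over all genes tested. With no low-count filter it was 0.73 over 81 members and -0.03 over all genes, and 68 of the 81 members were above 0, against 48.9% of all genes.

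Marker transcripts of other cells were measured beside them. Of 9 erythroid markers 6 passed the filter, 5 of them had both Runx1 libraries above both IgG libraries in CPM, and the list summed to 848 and 871 CPM in the Runx1 libraries and 491 and 479 CPM in the IgG libraries. Of 9 macrophage and platelet markers 4 passed, and they summed to 58.5 and 256 CPM in the Runx1 libraries and 80.4 and 68.5 CPM in the IgG libraries. Csf1r, a macrophage receptor, made up 144 CPM of the sum in Runx1 replicate 2, against 11.9 CPM in Runx1 replicate 1. Ppbp stood at 12.5 and 12.2 CPM in the Runx1 libraries and 0.260 and 0 CPM in the IgG libraries. C1qa stood at 7.16 and 14.3 CPM in the Runx1 libraries and 0 and 0 CPM in the IgG libraries. Of the 4 that passed, 3 had a log2 fold change above 0 and 1, Itga2b, below 0 (24.5 and 48.7 CPM in the Runx1 libraries, 59.6 and 50.8 CPM in the IgG libraries). Mesenchymal markers (9 of 9 passed) summed to 1495 and 1496 CPM in the Runx1 libraries and 1422 and 1326 CPM in the IgG libraries, and neural markers (6 of 9 passed, Olig2 at 0) to 661 and 525 CPM in the Runx1 libraries and 444 and 410.1 CPM in the IgG libraries. None of these markers was called in edgeR. The part of these cells in the levels of the respiratory chain mRNAs was not tested.

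**Figure D1:**
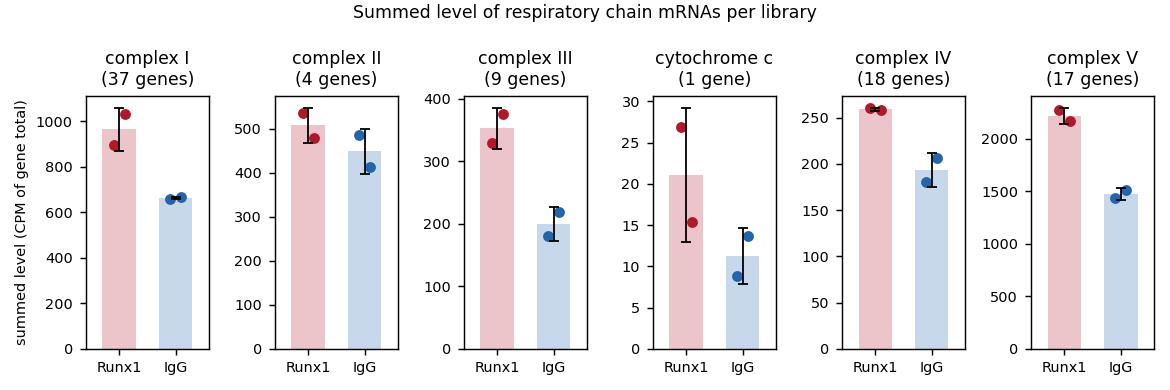
Summed level in CPM of the members of each complex. Points are the 2 libraries of each antibody, bars their mean and error bars the SD (n = 2). In complexes I, III, IV and V and for cytochrome c both Runx1 libraries lie above both IgG libraries, and in complex II they overlap, while scaled to the spike-in RNAs every ratio of Runx1 to IgG is below 1.

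The summed level of a complex shows the share of a library that its mRNAs took, weighted to its abundant members, and not an amount recovered. Complex I stood at 896 and 1032 CPM in the Runx1 libraries and 658 and 667 CPM in the IgG libraries (ratio of means 1.45). Complex II stood at 536 and 479 CPM in the Runx1 libraries and 485 and 413 CPM in the IgG libraries (ratio 1.13). Complex III stood at 329 and 376 CPM in the Runx1 libraries and 181 and 218 CPM in the IgG libraries (ratio 1.77). Complex II was the one complex whose libraries overlapped between the antibodies. Complex IV stood at 260.2 and 258 CPM in the Runx1 libraries and 180.1 and 206 CPM in the IgG libraries (ratio 1.34), and complex V at 2272 and 2163 CPM in the Runx1 libraries against 1434 and 1513 CPM in the IgG libraries (ratio 1.5). With 2 libraries against 2 there are 6 arrangements, so an exact permutation test cannot reach 0.05 and no p is given. Under the spike-in scaling the ratios were 0.587 for complex I, 0.452 for II, 0.724 for III, 0.549 for IV and 0.611 for V. The differences between complexes were not tested.

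The nuclear genes of complex I encode 7 of its conserved core subunits, those of the arm that holds the flavin and the iron-sulfur clusters, and the accessory subunits. The other core subunits are encoded by mitochondrial DNA. Ndufv1 binds NADH and the flavin. It stood at 109 and 147 CPM in the Runx1 libraries and 68.7 and 79.0 CPM in the IgG libraries, with a log2 fold change of 0.77 ± 0.32 (SE, edgeR unadjusted p = 0.0397, adjusted p = 0.324). All its Runx1 values lay above its IgG values. Ndufs1, the core subunit with the largest number of iron-sulfur clusters, stood at 177 and 112 CPM in the Runx1 libraries and 174 and 122 CPM in the IgG libraries, so the antibodies did not separate it (-0.07 ± 0.31, edgeR adjusted p = 0.960). Summed per library, the core subunits stood at 470.3 and 550.0 CPM in the Runx1 libraries and 358 and 364 CPM in the IgG libraries.

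Among the accessory subunits of complex I, Ndufa9, which sits beside the quinone site, stood at 43.6 and 71.0 CPM in the Runx1 libraries and 21.1 and 20.95 CPM in the IgG libraries (1.42 ± 0.50, edgeR unadjusted p = 0.0195, adjusted p = 0.251). Without Runx1 replicate 2 its log2 fold change was 1.00. Ndufv3, a small subunit of the NADH-binding part, had 18 and 50 counts in the Runx1 libraries and 1 and 6 counts in the IgG libraries. That is 10.7 and 26.5 CPM in the Runx1 libraries against 0.260 and 2.42 CPM in the IgG libraries (3.81 ± 1.23, edgeR unadjusted p = 0.0131, adjusted p = 0.213). Its IgG values rest on so few reads that the size of the difference is poorly fixed, and leaving out a library moved the log2 fold change over a range of 2.88 to 5.88. Ndufs4, whose loss causes a mitochondrial encephalopathy in mice, stood at 66.8 and 61.5 CPM in the Runx1 libraries and 67.9 and 96.7 CPM in the IgG libraries. Both its Runx1 libraries were below both IgG libraries (-0.39 ± 0.36, edgeR adjusted p = 0.712). Ndufa3, a small membrane-arm subunit, had 0 and 0 counts in the Runx1 libraries and 34 and 1 in the IgG libraries, so that its level came from IgG replicate 1.

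The other accessory genes were mostly shallow. Over the 30 genes of complex I that passed the filter, log2 fold changes ran from -0.86 (Ndufa11) to 3.81 (Ndufv3) with a median of 0.80, and 27 were above 0, while under the spike-in scaling the median was -0.50. The core subunits had a median of 0.77 over 7 genes and the accessory subunits 0.83 over 23. Ndufa4, named as a complex I gene but found in complex IV, was counted with complex I here by its symbol. It stood at 9.55 and 8.48 CPM in the Runx1 libraries and 4.42 and 5.24 CPM in the IgG libraries. Its relative Ndufa4l2 had 0 and 3 counts in the Runx1 libraries and 0 and 4 in the IgG libraries.

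**Figure D2:**
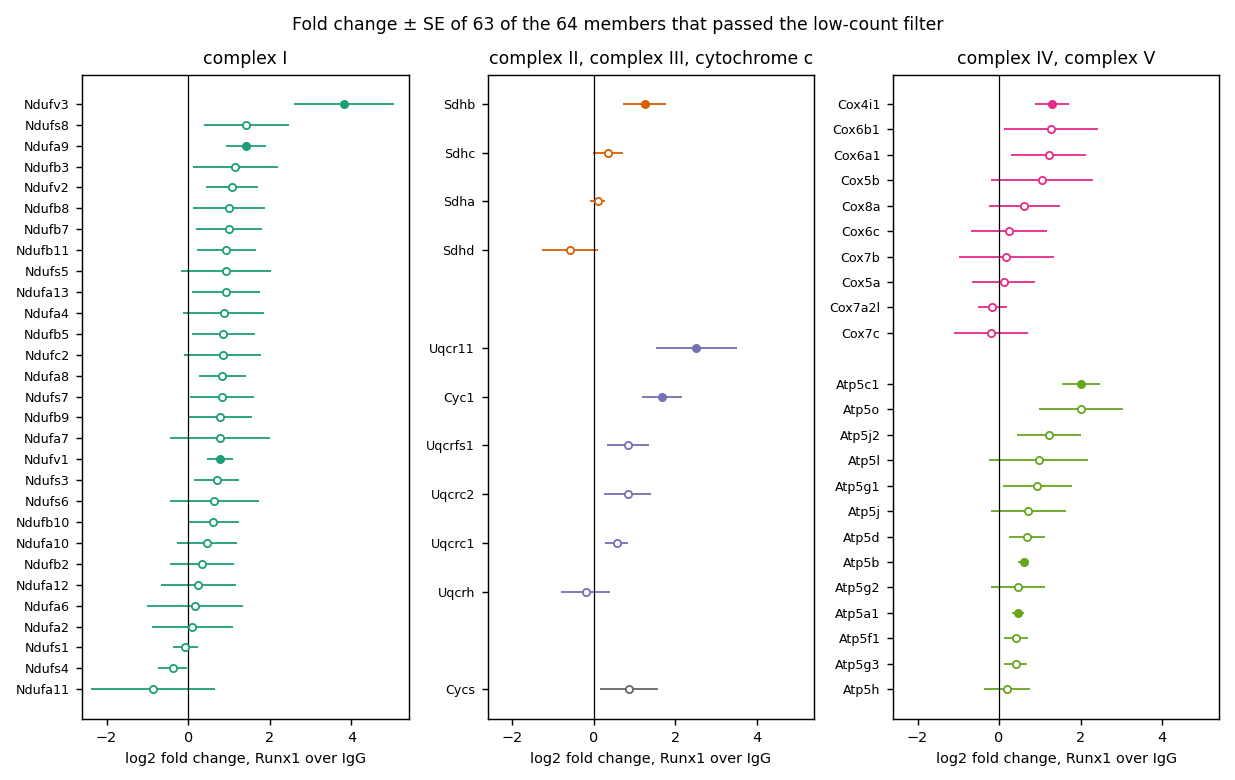
Log2 fold change (Runx1 over IgG) with its standard error for 63 of the 64 members that passed the low-count filter, by complex and ordered by size. Filled points have an unadjusted edgeR p under 0.05 and none passed after adjustment. Of the 64 members 57 were above 0, against 10 of 66 under the spike-in scaling. The standard errors are smallest for abundant genes such as Atp5b and Atp5a1.

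Complex II is also an enzyme of the citric acid cycle, and all its 4 subunits are nuclear-encoded. Sdha, the flavin subunit that oxidises succinate, stood at 358 and 349 CPM in the Runx1 libraries and 359 and 289.7 CPM in the IgG libraries (0.10 ± 0.18, edgeR adjusted p = 0.882). Sdhb, the iron-sulfur subunit, stood at 47.2 and 42.9 CPM in the Runx1 libraries and 15.9 and 21.4 CPM in the IgG libraries. Its log2 fold change was 1.25 ± 0.53 (edgeR unadjusted p = 0.0431, adjusted p = 0.332), with no overlap between the antibodies. The membrane anchors differed from each other in their spread. Sdhc stood at 75.2 and 76.8 CPM in the Runx1 libraries and 64.3 and 52.0 CPM in the IgG libraries (0.36 ± 0.36, edgeR adjusted p = 0.735). Sdhd stood at 55.5 and 10.6 CPM in the Runx1 libraries and 46.3 and 50.0 CPM in the IgG libraries, and its log2 fold change of -0.58 ± 0.69 (edgeR adjusted p = 0.784) was 0.15 without Runx1 replicate 2. The low value of Sdhd in Runx1 replicate 2 made the largest ratio between replicates in this complex.

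In complex III, Cyc1 encodes cytochrome c1, the haem protein that hands electrons to cytochrome c. It stood at 85.3 and 74.7 CPM in the Runx1 libraries and 15.9 and 33.8 CPM in the IgG libraries. Its log2 fold change was 1.67 ± 0.49 (edgeR unadjusted p = 0.00804, adjusted p = 0.184), and DESeq2 called it (adjusted p = 0.0302). Uqcr11, the smallest subunit, had 20 and 32 counts in the Runx1 libraries and 8 and 7 in the IgG libraries, which is 11.9 and 17.0 CPM in the Runx1 libraries against 2.08 and 2.82 CPM in the IgG libraries (2.52 ± 0.99, edgeR unadjusted p = 0.0324, adjusted p = 0.300). Neither gene overlapped between the antibodies. Uqcrc1, a core protein and the most abundant mRNA of the complex, stood at 125 and 154 CPM in the Runx1 libraries and 83.8 and 102 CPM in the IgG libraries (0.56 ± 0.29, edgeR adjusted p = 0.440). Uqcrfs1, the Rieske iron-sulfur protein, stood at 46.6 and 39.7 CPM in the Runx1 libraries and 26.8 and 20.1 CPM in the IgG libraries (0.84 ± 0.51, edgeR adjusted p = 0.520). Uqcrh, the hinge protein near cytochrome c1, stood at 20.9 and 18.0 CPM in the Runx1 libraries and 23.2 and 20.5 CPM in the IgG libraries (-0.20 ± 0.61, edgeR adjusted p = 0.933). Cyc1 and Uqcrh, which encode neighbours in the enzyme, thus had fold changes of opposite sign, the second with overlapping libraries. Uqcr10, Uqcrb and Uqcrq did not pass the filter.

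Cycs encodes cytochrome c, the soluble carrier between complexes III and IV. It stood at 26.9 and 15.4 CPM in the Runx1 libraries and 8.85 and 13.7 CPM in the IgG libraries (0.88 ± 0.71, edgeR adjusted p = 0.659). The antibodies did not overlap, though Runx1 replicate 2 and IgG replicate 2 were close. Stretches almost identical to Cycs lie in 4 other genes, so its counts could be split.

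The complex IV members of this set, grouped by symbol, are nuclear subunits around a catalytic core made in mitochondria, together with Cox7a2l. Cox4i1, the ubiquitous form of the largest nuclear subunit, stood at 68.6 and 98.6 CPM in the Runx1 libraries and 33.8 and 33.0 CPM in the IgG libraries. Its log2 fold change was 1.30 ± 0.41 (edgeR unadjusted p = 0.0115, adjusted p = 0.205), with all Runx1 values above the IgG values. Cox7a2l, which takes part in joining complexes III and IV into supercomplexes, stood at 113 and 66.8 CPM in the Runx1 libraries and 92.9 and 106 CPM in the IgG libraries (-0.17 ± 0.35, edgeR adjusted p = 0.894). Cox7c, a small membrane subunit, stood at 7.16 and 12.7 CPM in the Runx1 libraries and 5.98 and 16.5 CPM in the IgG libraries (-0.19 ± 0.90, edgeR adjusted p = 0.963). Without Cox7a2l the summed level of complex IV had a ratio of 1.80 between the antibodies. Of the 10 genes that passed, 3 had both Runx1 libraries above both IgG libraries (Cox4i1, Cox6a1 and Cox6b1) and 7 overlapped.

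Several complex IV subunits have forms that belong to muscle, lung or testis, and these had from 0 to 4 counts in a library. Cox4i2, the form of lung and of low oxygen, had 0 and 4 counts in the Runx1 libraries and 2 and 0 in the IgG libraries. In the library with the most of it, Runx1 replicate 2, it made up 2.11% of the Cox4i1 and Cox4i2 counts (exact Clopper-Pearson 95% interval 0.577% to 5.30%). Cox6a2 and Cox8b, the forms of heart and skeletal muscle, had no count, against 21 and 22 counts of Cox6a1 in the Runx1 libraries and 19 and 13 in the IgG libraries. No count of Cox8c, a testis form, was found beside 26 and 21 counts of Cox8a in the Runx1 libraries and 46 and 12 in the IgG libraries. By the counts of Cox8a, the share of Cox8b could still be up to 13.2% and 16.1% in the Runx1 libraries and 7.71% and 26.5% in the IgG libraries (exact Clopper-Pearson 95% intervals), so that the muscle forms were not detectable at this depth rather than shown to be absent. Cox7a1, another muscle form, had 0 and 2 counts in the Runx1 libraries and none in the IgG libraries, beside 8 and 1 counts of Cox7a2 in the Runx1 libraries and 12 and 6 in the IgG libraries. Cox6b2, a testis form, had 3 and 2 counts in the Runx1 libraries and none in the IgG libraries, beside 11 and 16 counts of Cox6b1 in the Runx1 libraries and 8 and 10 in the IgG libraries. Its share of the counts of both genes was 21.4% (exact Clopper-Pearson 95% interval 4.66% to 50.8%) and 11.1% (1.38% to 34.7%) in the Runx1 libraries, and 0% in the IgG libraries, where it could be up to 36.9% and 30.8%.

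Complex V held the most abundant members and those that came nearest to the threshold. Its F1 part makes ATP from the alpha and beta subunits (Atp5a1, Atp5b) around the rotating gamma subunit (Atp5c1). Atp5b stood at 784 and 718 CPM in the Runx1 libraries and 489 and 483 CPM in the IgG libraries (0.60 ± 0.14, edgeR unadjusted p = 0.00195, adjusted p = 0.102). Atp5a1 stood at 927 and 883 CPM in the Runx1 libraries and 575 and 721 CPM in the IgG libraries (0.45 ± 0.15, edgeR unadjusted p = 0.0135, adjusted p = 0.217). Atp5c1 stood at 123 and 74.7 CPM in the Runx1 libraries and 29.9 and 17.7 CPM in the IgG libraries (2.01 ± 0.46, edgeR unadjusted p = 0.00195, adjusted p = 0.102). In all 3 genes both Runx1 libraries were above both IgG libraries, and the fold of Atp5c1 (4.03) was larger than those of Atp5b (1.51) and Atp5a1 (1.37), a difference between genes that was not tested. Under the spike-in scaling the log2 fold change was 0.70 for Atp5c1, -0.68 for Atp5b and -0.80 for Atp5a1.

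Atp5b and Atp5c1 crossed the threshold in some settings. Without Runx1 replicate 2 edgeR called Atp5b (adjusted p = 0.0276) and Atp5c1 (adjusted p = 0.00858), and without IgG replicate 1 it called Atp5c1 (adjusted p = 0.0312). Over the 4 fits that left out a library the log2 fold change of Atp5b ran from 0.51 to 0.64 and that of Atp5c1 from 1.59 to 2.43. With no low-count filter, 2 members were called higher and 0 lower, against 1.01% and 1.46% of genes. With at least 10 counts required in every library, 2 were called higher and 0 lower, against 1.33% and 1.70% of genes. Without Runx1 replicate 2 the shares of all genes called were 1.14% higher and 1.55% lower, and without IgG replicate 1 they were 0.847% and 0.632%. Without Runx1 replicate 1 no member was called, against 1.75% of genes higher and 2.48% lower, and without IgG replicate 2 none was, against 0.704% of genes higher. With the replicate number as a block no member was called, against 0.0161% of genes higher. Scaled to the spike-in RNAs, 0 members were called higher and 5 lower, against 0.127% and 30.9% of genes. A fit with the lone remaining library of an antibody assumes that it varies like the other group. The length and GC correction described below left Atp5c1 at 1.79 and Atp5b at 0.35.

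The other F1 subunits were less separated. Atp5d, the delta subunit of the rotor, stood at 53.1 and 95.4 CPM in the Runx1 libraries and 38.2 and 53.2 CPM in the IgG libraries, with a small overlap (0.68 ± 0.44, edgeR adjusted p = 0.557). Atp5e, the epsilon subunit, had 1 and 4 counts in the Runx1 libraries and 25 and 4 in the IgG libraries and did not pass the filter. Per kb of transcript, the mean level with the Runx1 antibody was 392 CPM per kb for Atp5b, 366 for Atp5a1, 84.8 for Atp5c1, 52.7 for Atp5d and 3.23 for Atp5e. With IgG it was 254 CPM per kb for Atp5b, 262 for Atp5a1, 20.4 for Atp5c1, 32.4 for Atp5d and 9.64 for Atp5e. The alpha and beta mRNAs were thus close to each other per length with either antibody.

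Outside F1, the ring of c subunits is made from 3 genes that encode the same mature protein behind different import sequences. Atp5g3 stood at 130 and 148 CPM in the Runx1 libraries and 113 and 92.3 CPM in the IgG libraries (0.40 ± 0.28, edgeR adjusted p = 0.586). Atp5g2 stood at 19.7 and 20.1 CPM in the Runx1 libraries and 16.9 and 11.3 CPM in the IgG libraries, and Atp5g1 at 13.7 and 12.7 CPM in the Runx1 libraries and 6.24 and 7.25 CPM in the IgG libraries. In all 3 both Runx1 libraries were above both IgG libraries in CPM, and none passed. Atp5g3 gave 79.5% and 81.9% of the counts of the 3 genes in the Runx1 libraries and 83.0% and 83.3% with IgG, with exact Clopper-Pearson 95% intervals that overlap over the 4 libraries (74.2% to 84.1% in Runx1 replicate 1 and 78.3% to 87.5% in IgG replicate 2). The peripheral stalk subunit Atp5f1 stood at 125 and 111 CPM in the Runx1 libraries and 94.2 and 79.0 CPM in the IgG libraries (0.42 ± 0.30, edgeR adjusted p = 0.605). Atp5h, another stalk subunit and the lowest by fold among the genes of the complex that passed the filter, stood at 26.9 and 41.3 CPM in the Runx1 libraries and 36.2 and 22.2 CPM in the IgG libraries (0.20 ± 0.56, edgeR adjusted p = 0.926). All 13 genes of complex V that passed the filter had a log2 fold change above 0 and 10 had no overlap. The filter shaped these counts. Atp5o passed it through its Runx1 libraries alone (13.1 and 10.6 CPM, against 3.64 and 2.01 CPM in the IgG libraries). With no low-count filter, the counted genes that had not passed stood at 2.485 (Atp5k), -0.027 (Atp5mpl) and -1.616 (Atp5e). Under the spike-in scaling the median of the complex was -0.60.

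**Figure D3:**
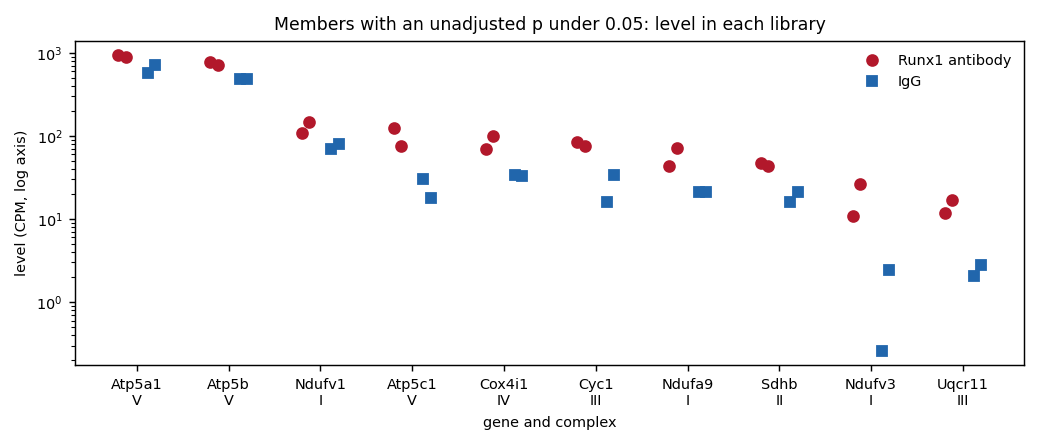
Level in CPM (log axis) in each library of the 10 members with an unadjusted edgeR p under 0.05, with the complex under each gene. Red circles are the 2 Runx1 libraries and blue squares the 2 IgG libraries. In all 10 the groups do not overlap in CPM, but the genes were chosen by p in this same comparison, so this is not a further result. Ndufv3 and Uqcr11 passed the low-count filter through their Runx1 libraries alone. Under the spike-in scaling 3 of the 10 had a fold change below 1. The adjusted p of these genes ran from 0.102 to 0.332.

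Precision followed depth. The 9 members with a mean of at least 100 CPM had a median standard error of 0.29 (log2), while the 23 tested members under 10 CPM had 1.04. Of the 45 members under 10 CPM, 22 did not pass the filter. Of the 10 members with an unadjusted p under 0.05, Uqcr11 and Ndufv3 lay under 10 CPM.

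In the mm10 annotation, Atp5a1 lies on chromosome 18 (77773729 to 77782869), Atp5b on chromosome 10 (128083273 to 128090391) and Atp5c1 on chromosome 2 (10056016 to 10080510). Cyc1 lies on chromosome 15 (76343523 to 76346260), Uqcr11 on chromosome 10 (80402997 to 80406830) and Sdhb on chromosome 4 (140961203 to 140979193). Ndufv1 lies on chromosome 19 (4007384 to 4012806), Ndufa9 on chromosome 6 (126821721 to 126849136), Ndufv3 on chromosome 17 (31520115 to 31531331) and Cox4i1 on chromosome 8 (120668222 to 120674207). Exons of Atp5a1 overlap Haus1, those of Cox4i1 overlap Emc8 and those of Ndufa9 overlap 1700018A23Rik, and the counting is not stated to use strand. Another gene carries a stretch almost identical to Atp5c1. In all, 28 of the 86 members have such a stretch of at least 200 bases at 95% identity in another gene, and exons of 30 overlap another gene.

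Respiratory chain mRNAs are short, and over the genes tested, transcripts under 1000 nt had higher fold changes than longer ones. The order was not steady, since other tested genes under 500 nt had a median log2 fold change of only 0.155, against 0.487 between 750 and 1000 nt. The transcripts of all 86 members had a median of 787 nt, against 3076 nt over all genes tested. These sets are unlike, since the first includes the 22 members that did not pass the filter. Genes tested with transcripts under 1000 nt had a median log2 fold change of 0.37 over 961 genes, against 0.01 over the 11435 longer ones. The members stood above both, at 0.82 over 33 members under 1000 nt and 0.68 over 31 longer members. Among members, length and fold change were not ordered (Spearman rho -0.03 over 64 genes), while over 12396 tested genes rho was -0.25. Genes within a library share its depth, and these values are descriptions across genes.

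With each library corrected for the length and GC content of transcripts, the median over the 64 members was 0.35, against 0.05 over all genes tested. By complex it was 0.36 for complex I, 0.22 for II, 0.73 for III, 0.17 for IV and 0.31 for V, against 0.80, 0.23, 0.84, 0.43 and 0.68 without it. The members of complexes II and III kept most of their median, and those of I, IV and V did not. After the correction 51 of the 64 were above 0 and 0 were called, against 0.258% of genes called higher and 0.0887% lower. The 10 members with an unadjusted p under 0.05 before the correction, and so chosen by their uncorrected values, had corrected log2 fold changes of 0.31 to 3.38. With the correction 5 members were higher and 0 lower at an unadjusted edgeR p under 0.05. Of the 12401 genes tested 1375 had such a p in either direction with the correction, and 1766 without it.

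**Figure D4:**
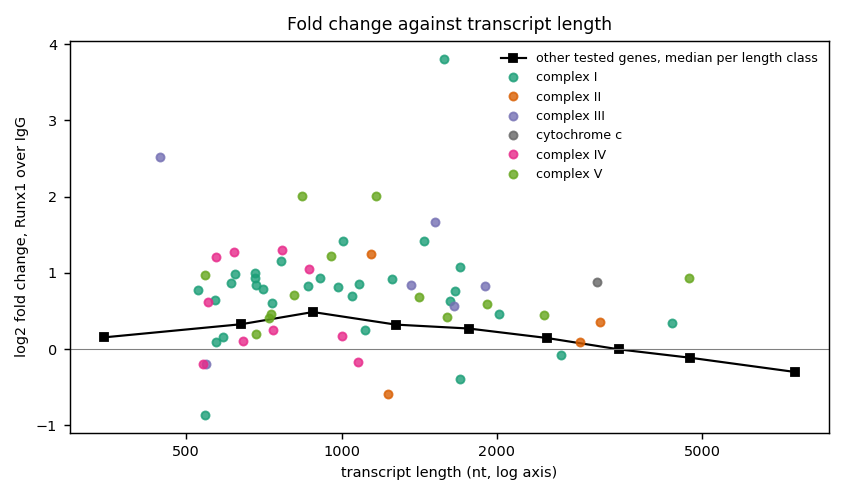
Log2 fold change (Runx1 over IgG) of the 64 tested members against transcript length (log axis), coloured by complex. The black line joins the median fold change of the other tested genes in 9 classes of length, which is highest at 0.49 between 750 and 1000 nt and lowest at -0.30 from 6000 nt. In the shortest class, under 500 nt, it is 0.155. In all 8 classes that hold members, the members' median lies above the line. The classes of 0 to 500, 3000 to 4000 and 4000 to 6000 nt hold only 1, 2 and 2 members. Under the spike-in scaling the median gene and the median member are both below 0.

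Members with short transcripts also gave few counts per length. The 53 members with transcripts under 1000 nt had a median of 9.98 CPM per kb over all 4 libraries, against 27.1 CPM per kb for the 33 longer ones. The short ones include all members with no count, among them muscle and testis forms. Spearman rho between length and CPM per kb was 0.34 over the 81 members with a count and -0.15 over 10681 protein-coding genes tested. Only the second set was limited to genes that passed the filter, so the sets are unlike.

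The following lists hold genes that work with the respiratory chain, and differences between the lists were not tested. Their medians are not corrected for transcript length. Of 46 assembly factors, which help build the complexes without staying in them, 31 passed the filter, 0 were called, 19 were above 0 and the median log2 fold change was 0.22. The smallest p among them was that of Coa7 (1.37 ± 0.61, edgeR adjusted p = 0.359), followed by Coa3 (1.92 ± 0.98) and Cox15 (1.87 ± 1.03). Of 18 enzymes of the citric acid cycle and pyruvate oxidation, all passed the filter, 0 were called, 15 were above 0 and the median was 0.52. Idh3b stood at 23.3 and 85.3 CPM in the Runx1 libraries and 11.97 and 5.24 CPM in the IgG libraries (2.61 ± 0.77, edgeR adjusted p = 0.188). Suclg2 followed (1.51 ± 0.45, edgeR adjusted p = 0.189).

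Carriers and porins, which move phosphate and nucleotides across the mitochondrial membranes, had a median of 0.42 over 6 genes. Slc25a3, the phosphate carrier, stood at 358 and 404 CPM in the Runx1 libraries and 209 and 237 CPM in the IgG libraries (0.74 ± 0.19, edgeR adjusted p = 0.134). Slc25a5 (1.17 ± 0.31, edgeR adjusted p = 0.153) and Slc25a4 (0.52 ± 0.22, edgeR adjusted p = 0.332), both ADP/ATP carriers, followed. The 12 regulators of nuclear respiratory genes had a median of -0.15, with 4 above 0 and 0 called. Their transcripts are long, with a median of 3911.5 nt. Other tested genes of 3000 to 4000 nt had a median log2 fold change of -0.003, and those of 4000 to 6000 nt -0.113. Nrf1, the factor whose motif is given above, stood at 863 and 907 CPM in the Runx1 libraries and 1271 and 1112 CPM in the IgG libraries (-0.46 ± 0.12, edgeR adjusted p = 0.150), with no overlap. Tfam, a mitochondrial transcription factor, stood at -0.56 ± 0.34 and Tfb2m at 1.104 ± 0.79. The subunits encoded by mitochondrial DNA, 13 genes of which 8 passed the filter, summed to 4969 and 4412 CPM in the Runx1 libraries and 2623 and 2850.1 CPM in the IgG libraries. Only mt-Co1 was called (1.00 ± 0.11, edgeR adjusted p = 0.0120). It held 2299 and 2016 CPM of the Runx1 sums and 1012 and 1099 CPM of the IgG sums. The genes that did not pass, mt-Co2, mt-Co3, mt-Atp6, mt-Atp8 and mt-Nd4l, had at most 7.16 CPM in any library. The sums therefore do not weigh the 13 subunits evenly.

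**Figure D5:**
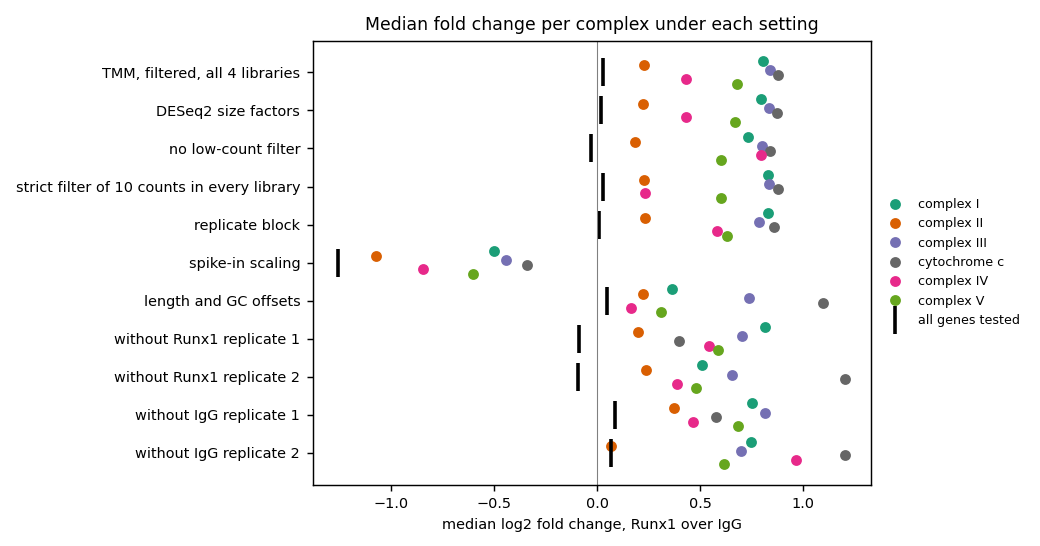
Median log2 fold change (Runx1 over IgG) of each complex under the processing used here and 10 alternatives, with the median of all tested genes as a black bar. Every complex median is above 0 in every setting except the spike-in scaling, where all are below 0 and above the median gene. Complex II is at the median gene without IgG replicate 2 (0.07 for both).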

How the data were processed

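The RIP-seq libraries, 2 for Runx1 and 2 for IgG, were grouped by their titles. The authors deposited whole-number gene counts under Ensembl identifiers, not normalized. The submitters' processing notes name mm10 and the tools STAR 2.7.3a, Salmon 1.1.0 and Trimmomatic 0.36, without their roles. Which annotation, strand setting and filters were used is not stated there. Per the labels' protocols, cDNA was sheared by sonication. Of the 55573 identifiers 55480 were in GENCODE M21. Library sizes and tests left out the 92 spike-in rows.

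The gene test was that of edgeR 4.0.16 under R 4.3.3 (quasi-likelihood, TMM, filterByExpr with a minimum count of 10 and total of 15) over all 4 libraries, two-sided, with Benjamini-Hochberg adjustment over 12401 genes. Standard errors follow from the test statistic. Lengths and GC content are those of the principal transcript, since the longest one can be an unspliced form. Among transcripts of the same rank the longest was taken, so long forms can remain. Atp5g1 was given 4715 nt and Ndufb2 4371 nt. The correction used natural splines with 5 degrees of freedom. Alternatives were DESeq2 1.42.0, limma-voom (limma 3.58.1), DESeq2 size factors, other filters, a replicate block, spike-in scaling and leaving out each library. Near-identical stretches came from blastn 2.17.0.

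Full values are given for members with an unadjusted p under 0.05, the highest level per kb and the highest and lowest fold at 10 CPM or more in each complex, complex II, F1 and tissue forms. Of other lists the 3 smallest p are named. The values of 1 member and of 1 gene of the other lists are not reported here. Ndufs1, Ndufa3, Ndufa11, Uqcrfs1, Atp5f1, Cox6a1 and Cox6b1 were added after their values were seen. Members and lists were chosen with earlier results of these data known, so a planned permutation p over the summed complexes is not given.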

Additional observations from a re-analysis of the deposited data

How the results depend on the processing

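Calls of single genes, sums and medians were recomputed under each alternative. Of all genes tested, edgeR called 38 higher and 42 lower. With no low-count filter there were 224 and 325, with a strict filter 125 and 159, with spike-in scaling 16 and 3903, DESeq2 gave 229 and 357, and limma-voom 102 and 120. The length and GC correction gave 11 lower genes. Leaving out 1 library gave 95 to 248 higher and 81 to 352 lower.

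Of the members, 2 were higher with no filter, 2 with the strict filter, 3 with DESeq2 and 1 with limma-voom. Leaving out 1 library gave 0 to 2 higher and 0 lower, and the spike-in scaling 5 lower (Ndufs1, Ndufs4, Sdha, Cox7a2l and Atp5a1) against 30.9% of all genes. With the replicate number as a block, the called genes were 2 higher and 0 lower, and 1566 had an unadjusted edgeR p under 0.05. That fit called 0 members, gave 8 an unadjusted p under 0.05 and put the complex IV median at 0.58. The labels do not pair the libraries, and same-numbered libraries deviated together with a correlation of 0.006.

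Under the spike-in scaling the medians were -0.52 for all members, -0.50 for complex I, -1.07 for II, -0.44 for III, -0.34 for cytochrome c, -0.84 for IV and -0.60 for V. The ratios of summed levels were 0.587, 0.452, 0.724, 0.789, 0.549 and 0.611 in that order of complexes. The members' median lay 0.74 above that of all genes there. The length and GC correction gave 0.35 for all members, 0.36 for complex I and 0.17 for IV. Complex IV stood at 0.79 with no filter and 0.23 with the strict one. Leaving out 1 library gave 0.48 to 0.70 for all members, 0.51 to 0.81 for complex I, 0.069 to 0.374 for II and 0.39 to 0.97 for IV. Low counts kept 22 of the 86 members out of the test. The cause of these moves was not tested.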
